A study of Homo sapiens with 30 samples.

Results

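The genes described here are 59 protein-coding genes spread along both arms of human chromosome 16. They were chosen by measured values of these same arrays, in which many genes of the chromosome were lower in the knockdown cells than in the shControl cells and differed again between the sets of knockdown arrays. The differences between knockdowns and shControl and between set 2 and set 1 are therefore given below as descriptions, with no test. Of the 59 genes, 56 had a probe in the annotation, and 55 were tested, 28 on the short arm and 27 on the long arm, among 13721 genes tested in all. NUBP2, PMM2 and ARL6IP1 were not analysed here. EMP2 lay just outside the detection filter, which asked for a detection p under 0.05 on at least 3 arrays, since its probe was detected on 1 array. WWOX lay nearest to the limit on the inside, with 13 arrays, and the other 54 genes were detected on all 30 arrays.

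The level of a transcript often follows the number of copies of its gene, so that the loss or gain of a chromosome or of an arm tends to move many of its genes by a modest amount in the same direction, which is called a dosage effect. Feedback and gene-specific regulation make single genes depart from that common shift. Loss of the long arm of chromosome 16 is among the frequent changes of breast cancer genomes, and the chromosome carries genes of very different roles, from the kinase ERK1 (MAPK3) to the insulator protein CTCF. Only transcript levels were measured in the data used here. DNA copy number was not measured, so its part in the differences was not tested, and fewer copies and less RNA per copy cannot be told apart.

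The label of all cells was MCF-10A, a breast epithelial line that is not transformed, and every group, the controls included, overexpressed cyclin E, an activator of entry into S phase. Each group carried a stable short hairpin RNA (shRNA), shATM, shATR, shCHK1 or shCHK2 against the kinases of the replication stress response or the control hairpin shControl, and RNA was taken 48 hours after seeding. The 5 shRNAs in 2 sets with 3 replicates gave 10 groups of 3 Illumina bead arrays, 24 knockdown arrays and 6 shControl arrays. The labels state neither what separates set 2 from set 1 nor whether replicates were separate cultures or clones, so every standard error (SE) and p-value reflects only how far arrays of a group spread, which may be technical.

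The knockdown arrays and the shControl arrays stood far apart. The number of probes detected on an array was 18984 to 21732. Replicates correlated across genes at 0.988 to 0.996, whereas a knockdown array and a shControl array correlated at 0.896 to 0.931. A set 2 and a set 1 knockdown array correlated at 0.962 to 0.978. CDKN2A, a locus that MCF-10A cells are known to lack, was detected on 24 of 24 knockdown arrays and on 0 of 6 shControl arrays, and CCNE1, which encodes cyclin E, differed by -1.74 (SE 0.07) on the log2 scale between knockdown and shControl cells. Every difference between knockdown and shControl cells below therefore also holds whatever else separates these cells. Against shControl, ATM differed by -0.49 (SE 0.07) in shATM cells, CHEK1 by -0.78 (SE 0.08) in shCHK1 cells and CHEK2 by -0.35 (SE 0.09) in shCHK2 cells on the log2 scale. ATR was detected on 11 of 24 knockdown and 2 of 6 shControl arrays and differed by 0.34 (SE 0.11) in the arrays labelled shATR, so that label was not borne out by its target. These targets were compared with shControl only, so lowering by each hairpin, apart from whatever else separates the cells, was not tested. Over all genes the lower quartile of knockdowns minus shControl was -0.33, close to the value of CHEK2. Among markers of the labelled cell type, 5 of 8 basal epithelial markers were tested and detected on all arrays, and their summed level was 6561 to 24120 in knockdown and 5424 to 8690 in shControl arrays, in normalised intensity units. The summed level of 6 luminal markers was 1533 to 3729 in knockdown and 6016 to 6971 in shControl arrays. For 3 leukocyte markers it was 231.5 to 542.5 in knockdown and 1262 to 3095 in shControl arrays, with CD3E detected on no array and PTPRC on 1 of 24 knockdown arrays. CD14 and HLA-DRA were detected on all 24 knockdown and all 6 shControl arrays, and LYZ on 20 knockdown and 4 shControl arrays. For 5 markers of endothelial cells and fibroblasts it was 118.4 to 264.4 in knockdown and 278.1 to 408.5 in shControl arrays, with VWF, COL3A1 and PDGFRB detected on none. PECAM1 was detected on 4 knockdown and 6 shControl arrays and CDH5 on 0 knockdown and 5 shControl arrays. COL1A1 was detected on 6 knockdown and 0 shControl arrays, COL1A2 on 10 knockdown and 3 shControl arrays, and DCN on 9 knockdown and 3 shControl arrays. The part of these marker differences in the results was not tested.

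Chromosome 16 had the lowest median of 23 chromosomes when knockdown cells were set against shControl cells. Its 609 tested genes had a median log2 difference of -0.36, and 456 of them (74.9%) were below 0. Over all 13721 genes the median was 0.02 and 6627 genes (48.3%) were below 0. Next in order came chromosome 7 at -0.22 and chromosome 4 at -0.20, and at the other end chromosome 20 stood at 0.32. In set 2 chromosome 16 was again the lowest, at -0.43, while in set 1 chromosome 4 (-0.31) lay below chromosome 16 (-0.29).

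**Figure D1:**
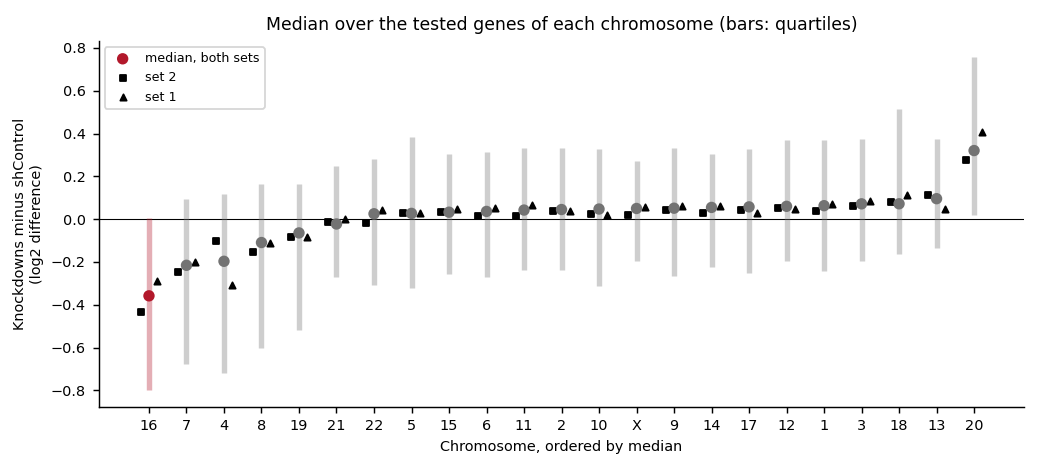
Median log2 difference between the 24 knockdown arrays and the 6 shControl arrays over the tested genes of each chromosome, ordered by median. Bars span the quartiles over genes, squares are set 2 and triangles set 1. Chromosome 16 (-0.36) stands at the low end and chromosome 20 (0.32) at the high end.

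Among the 55 listed genes the median log2 difference between knockdown and shControl cells was -0.49, a level of 0.713 of shControl, with quartiles of -0.77 and -0.26. The 554 other tested genes of the chromosome had a median of -0.35, with 408 below 0, and genes of the other chromosomes had a median of 0.03. The listed short-arm genes had a median of -0.42 and the listed long-arm genes of -0.57. The arms were closer in the other genes, at -0.36 for 312 short-arm genes and -0.32 for 242 long-arm genes. The listed genes were picked with these values known, so their distance from the other genes of the chromosome is no result of its own.

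Along the chromosome the lower level was spread over both arms. In groups of about 30 neighbouring tested genes, the median log2 difference ran from -0.52 to -0.23 over 11 groups of the short arm, all below 0. On the long arm 9 groups ran from -0.64 to 0.05. The group nearest to the centromere, from SHCBP1 to LPCAT2, was the lowest, and the next, from CAPNS2 to MMP15, was the only group above 0, with 14 of 30 genes below 0. That stretch holds ARL2BP and CIAPIN1 of the listed genes and, between FTO and ARL2BP, a cluster of metallothioneins, small metal-binding proteins. There MT2A differed by 1.41, MT1E by 1.22, MT1F by 2.07, MT1G by 4.29, MT1H by 2.20 and MT1X by 3.58 on the log2 scale, all higher in knockdown cells. These genes are near-identical copies, so their probes may share signal and the single values are uncertain. The group from NFATC3 to ST3GAL2, which holds NIP7 and NFAT5, had a median of -0.06, with 18 of 30 genes below 0.

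**Figure D2:**
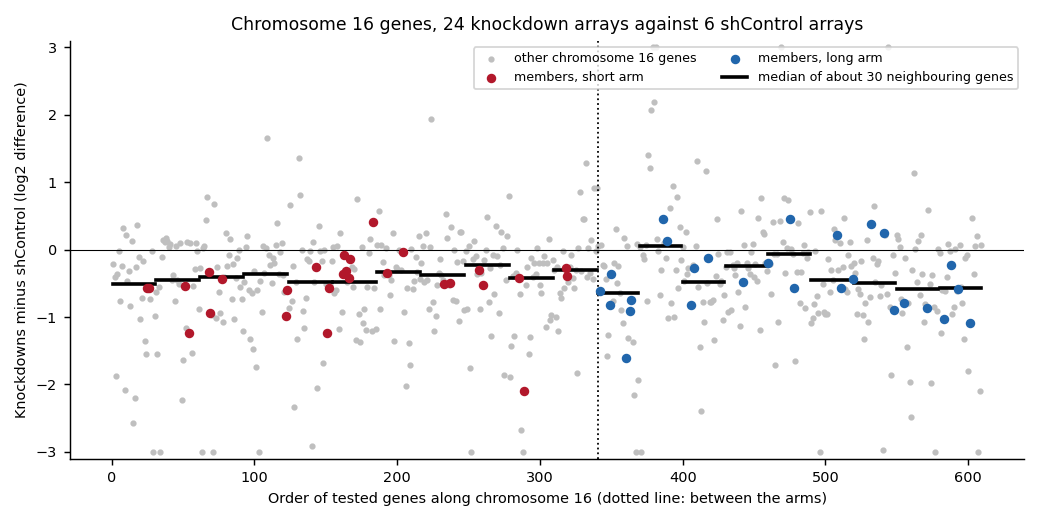
Log2 difference between knockdown and shControl cells for each tested gene of chromosome 16, in map order from the short-arm end. Red and blue points are the listed short-arm and long-arm genes, grey points the other genes (16 beyond 3 or -3 are drawn at the edge), and black lines the medians of about 30 neighbours. All lines but the second of the long arm (0.05) lie below 0.

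The same shift could be read on each array. Relative to the mean of the shControl arrays, the median over the listed short-arm genes was -0.62 to -0.29 on the 24 knockdown arrays, with a median of -0.47, and -0.05 to 0.04 on the 6 shControl arrays. For the long-arm genes the range was -0.72 to -0.27 on knockdown arrays, with a median of -0.47, and -0.07 to 0.04 on shControl arrays. No knockdown array reached the range of the controls on either arm. The median over all genes stayed between -0.05 and 0.02 on every knockdown array, where quantile normalisation tends to hold it. For the other chromosome 16 genes the knockdown arrays ran from -0.43 to -0.25 on the short arm and from -0.42 to -0.28 on the long arm. Within the knockdowns the medians of the listed short-arm genes ran from -0.62 to -0.45 in set 2 and from -0.49 to -0.29 in set 1, so the sets overlapped slightly. The SD between replicates of a group was 0.05 for the short-arm and 0.07 for the long-arm median.

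**Figure D3:**
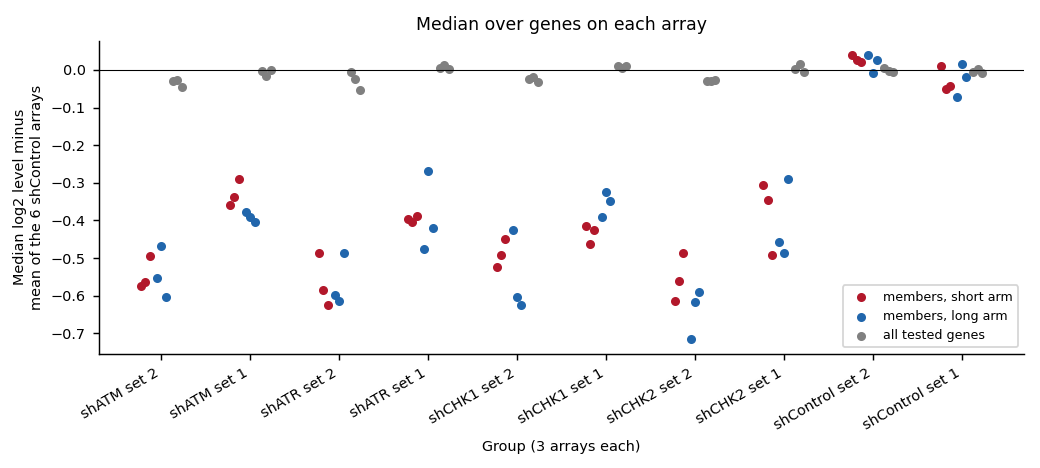
Median log2 level over the listed short-arm genes (red), the listed long-arm genes (blue) and all tested genes (grey) on each array, relative to the mean of the 6 shControl arrays. Knockdown arrays lie between -0.72 and -0.27 for the listed genes and shControl arrays between -0.07 and 0.04. All genes stay near 0, where quantile normalisation tends to hold them.

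Gene by gene, 48 of the 55 were below shControl on average and 7 above. The 7 include WWOX, whose probes differed in sign. In 22 of the 55 (40%) all 24 knockdown arrays lay below all 6 shControl arrays, beside 12.1% of all genes. Of the 22, 9 are on the short arm and 13 on the long arm. In none of the 55 did all knockdown arrays lie above the controls, beside 8.93% of all genes. Among the 554 other chromosome 16 genes 30.9% lay wholly below and 2.89% wholly above. The listed genes were picked with these differences known, so their shares are descriptions only. The direction was shared by the hairpins, since 46 genes were below shControl in all 4 knockdowns, 7 were above in all 4, and SNN and THUMPD1 were mixed. The median over the 55 genes was -0.44 in shATM, -0.46 in cells labelled shATR, -0.49 in shCHK1 and -0.44 in shCHK2 cells. These knockdowns share the same shControl arrays.

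The kinase and signalling genes held the largest difference of the list. MAPK3, which encodes the MAP kinase ERK1, had log2 levels of 7.89 to 8.85 on knockdown arrays, with a median of 8.13, and 10.27 to 10.40 on shControl arrays, with a median of 10.34. The groups were far from overlapping, and the log2 difference was -2.10 (SE 0.06), a level of 0.234 of shControl. Its other kept probe gave -2.23. TSC2 encodes tuberin, which restrains the growth kinase complex mTORC1. It had 5.81 to 7.48 on knockdown arrays (median 6.65) and 7.41 to 7.86 on shControl arrays (median 7.53), a difference of -0.94 (SE 0.09), with the highest knockdown array above the lowest control. CMIP, a signalling adaptor of the long arm, had 10.95 to 11.60 in knockdowns (median 11.38) and 11.02 to 11.21 in shControl (median 11.07), a difference of 0.24 (SE 0.05), and the ranges overlapped. Within set 1 the CMIP difference was 0.42, with no overlap, and within set 2 it was 0.07.

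The 3 tested enzymes of small-molecule metabolism were all lower in every knockdown array than in any shControl array. HAGH, glyoxalase II, which completes the detoxification of methylglyoxal, had 9.27 to 10.43 in knockdowns (median 9.78) and 11.01 to 11.17 in shControl (median 11.11). Its difference was -1.24 (SE 0.06), and its other probe gave -1.13. APRT, which salvages adenine, had 9.60 to 10.82 in knockdowns (median 10.16) and 11.12 to 11.36 in shControl (median 11.14), a difference of -1.03 (SE 0.07), with -1.20 for its other probe. The level was 0.422 of shControl for HAGH and 0.491 for APRT. The glycolytic aldolase ALDOA, among the brightest of the list, differed by -0.42 (SE 0.06), with -0.96 and -0.26 for its other kept probes.

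All 12 genes of chromatin and transcription were below shControl, with a median difference of -0.46. CHD9, a chromodomain helicase, had 8.07 to 9.42 in knockdowns (median 8.64) and 10.08 to 10.46 in shControl (median 10.26), a difference of -1.61 (SE 0.06). TCF25, which encodes a nuclear transcriptional regulator, had 9.67 to 10.52 in knockdowns (median 10.31) and 11.23 to 11.52 in shControl (median 11.36), a difference of -1.10 (SE 0.07). Only in these 2 of the 12 were all knockdown arrays below all controls. The others lay between -0.61 for the acetyltransferase CREBBP and -0.20 for the calcium-regulated factor NFATC3. The insulator protein CTCF stood at -0.49 (SE 0.08). UBN1, a subunit of the HIRA histone chaperone complex, had 8.61 to 9.74 in knockdowns (median 9.23) and 9.21 to 9.72 in shControl (median 9.50), a difference of -0.25 (SE 0.07), with wide overlap.

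Among 9 genes of RNA and translation, 7 were below and 2 above shControl, with a median of -0.41. CARHSP1, an RNA-binding protein that stabilises messenger RNA, had 9.80 to 10.58 in knockdowns (median 10.28) and 11.29 to 11.63 in shControl (median 11.50), a difference of -1.23 (SE 0.07). CNOT1, the scaffold of the CCR4-NOT deadenylase, differed by -0.82 (SE 0.04), the RNA demethylase FTO by -0.74 (SE 0.09) and the nucleolar protein RSL1D1 by -0.41 (SE 0.04), each with all knockdown arrays below the controls. NIP7, which acts in ribosomal RNA processing, went the other way, with 10.86 to 11.62 in knockdowns (median 11.36) and 10.62 to 11.07 in shControl (median 10.76), a difference of 0.45 (SE 0.05). DHX38, a splicing helicase, had 7.45 to 8.45 in knockdowns (median 8.04) and 7.38 to 8.19 in shControl (median 7.89), a difference of 0.21 (SE 0.09). With the sets pooled its groups overlapped almost wholly. Within set 1 the DHX38 difference was 0.43, with 7.96 to 8.45 in knockdowns and 7.38 to 7.95 in shControl. Within set 2 it was -0.008. The translation release factor GSPT1 had 12.73 to 13.06 in knockdowns (median 12.91) and 12.95 to 13.16 in shControl (median 13.05), a difference of -0.14 (SE 0.04), and THUMPD1, which assists the acetylation of transfer RNA, had 9.91 to 10.40 in knockdowns (median 10.12) and 10.01 to 10.29 in shControl (median 10.19), a difference of -0.03 (SE 0.05). Both overlapped with the controls.

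Every one of the 7 genes of mitochondria and the peroxisome was below shControl in both sets, with a median of -0.54. TRAP1, the chaperone of the mitochondrial matrix, had 9.19 to 10.02 in knockdowns (median 9.65) and 10.37 to 10.70 in shControl (median 10.66), a difference of -0.98 (SE 0.06). LONP2, the peroxisomal Lon protease, followed with -0.81 (SE 0.06) and RHOT2, a GTPase of mitochondrial transport, with -0.57 (SE 0.07). In these 3 no knockdown array reached the controls. MRPS34 of the mitochondrial ribosome stood at -0.54, COQ7 of coenzyme Q synthesis at -0.34, the elongation factor TUFM at -0.30 and the aminotransferase GOT2 at -0.27, all with overlapping arrays.

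The 6 genes of ubiquitin, folding and protein processing were all below shControl, at a median of -0.46. MBTPS1, the protease that cleaves the SREBP and ATF6 precursors, had 9.19 to 10.04 in knockdowns (median 9.61) and 10.34 to 10.66 in shControl (median 10.50), a difference of -0.90 (SE 0.06). The deubiquitinase USP7 and the chaperone-associated ligase STUB1 each stood at -0.56 (SE 0.08), and the ligase SIAH1 at -0.36 (SE 0.05), again with every knockdown array below the controls. The thioredoxin-domain protein TXNDC11 (-0.32) and the NEDD8-activating subunit NAE1 (-0.13) overlapped with them. KLHDC4, a kelch-domain protein, differed by -0.87 (SE 0.06).

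Of 10 genes of membrane traffic and the cytoskeleton, 8 were below and 2 above shControl, at a median of -0.45. The actin-binding COTL1 stood at -0.79, the retromer subunit VPS35 at -0.61 (SE 0.05), the ESCRT-III protein CHMP1A at -0.58 and the Golgi glycoprotein GLG1 at -0.57. Knockdown arrays lay wholly below the controls for VPS35, CHMP1A and GLG1, and not for COTL1. The dynactin subunit DCTN5 (-0.51), the syntaxin STX4 (-0.39) and the endosomal LITAF (-0.37) were moderately lower. The membrane protein stannin (SNN) had 5.20 to 6.48 in knockdowns (median 5.88) and 5.45 to 6.26 in shControl (median 5.93), a difference of -0.09 (SE 0.13) that is within its error. NDE1, a dynein regulator of the centrosome, was the only listed short-arm gene above shControl, with 8.61 to 9.20 in knockdowns (median 8.84) and 8.12 to 8.61 in shControl (median 8.52), a difference of 0.41 (SE 0.07). On the long arm ARL2BP, which binds the small GTPase ARL2, had 11.07 to 11.93 in knockdowns (median 11.41) and 10.85 to 11.20 in shControl (median 11.07), a difference of 0.46 (SE 0.05). For ARL2BP the difference was 0.81 within set 1, with no overlap, and 0.10 within set 2, with overlap. Its neighbour in the list CIAPIN1, an iron-sulphur cluster assembly factor, stood at 0.13 (SE 0.05).

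Among genes of genome maintenance, AKTIP, which takes part in telomere replication, had 9.55 to 10.30 in knockdowns (median 9.99) and 10.66 to 11.02 in shControl (median 10.87), a difference of -0.91 (SE 0.05) with no overlap. NTHL1, a DNA glycosylase of base excision repair, had 8.62 to 9.62 in knockdowns (median 9.08) and 9.17 to 9.64 in shControl (median 9.38), a difference of -0.34 (SE 0.07). WWOX spans a common fragile site and was near the detection limit. Its probe was detected on 13 of 24 knockdown and 0 of 6 shControl arrays, so it passed the detection filter through knockdown arrays only. Its log2 levels were 4.54 to 5.99 in knockdowns (median 5.03) and 4.54 to 4.86 in shControl (median 4.74). It was not well above background in shControl, so the size of its difference is uncertain. Its other probe, detected on 5 of 24 knockdown and 6 of 6 shControl arrays, went the other way with -1.10, so WWOX has no settled direction.

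TSC2 and NTHL1 lie head to head, and their RefSeq promoter windows (250 bases before the start to 50 after it, GRCh38.p14) overlap by 250 bases. The TSC2 window was chosen for the largest overlap with that of NTHL1. They are printed because the 2 genes, read in opposite directions, differed in size against shControl and in direction between the sets. Whether the array probes measure transcripts from these starts was not tested. TSC2 is chr16:2047735-2048034 on the plus strand and NTHL1 chr16:2047785-2048084 on the minus strand, each 5′ to 3′. Capitals mark GGGCGG or its reverse complement CCGCCC, the core of the GC box bound by Sp1 family factors, with 1 copy in the TSC2 and 2 copies in the NTHL1 window. The TSC2 copy and the second NTHL1 copy are the same site in the overlap, read on opposite strands.
TSC2: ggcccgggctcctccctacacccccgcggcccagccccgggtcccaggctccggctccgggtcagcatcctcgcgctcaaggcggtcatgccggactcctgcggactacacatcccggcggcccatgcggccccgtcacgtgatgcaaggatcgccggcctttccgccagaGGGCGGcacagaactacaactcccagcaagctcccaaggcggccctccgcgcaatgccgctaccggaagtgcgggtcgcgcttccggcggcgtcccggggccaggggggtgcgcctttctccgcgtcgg
NTHL1: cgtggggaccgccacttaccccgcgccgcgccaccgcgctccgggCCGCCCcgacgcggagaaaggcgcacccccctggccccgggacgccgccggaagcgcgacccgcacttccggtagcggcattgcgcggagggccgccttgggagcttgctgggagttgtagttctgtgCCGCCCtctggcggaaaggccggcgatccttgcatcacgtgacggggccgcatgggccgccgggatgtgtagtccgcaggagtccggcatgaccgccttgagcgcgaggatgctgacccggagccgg
The motif, sought on both strands, was in 45% of 35116 RefSeq windows and in 71.8% of the 78 windows of 50 listed genes, which counts letters and says nothing about binding. The RefSeq windows cover 27305 genes, detected here or not, whereas the listed genes were nearly all detected on every array. The shares thus come from unlike gene sets, and tested genes alone were not counted. Against shControl TSC2 differed by -0.94 and NTHL1 by -0.34. Between set 2 and set 1 of the knockdowns TSC2 differed by -0.88 (SE 0.08) and NTHL1 by 0.20 (SE 0.06). In shControl cells the set difference was -0.22 (SE 0.16) for TSC2 and 0.27 (SE 0.13) for NTHL1, so that of NTHL1 was about as large in shControl as in the knockdowns.

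Other listed genes that are direct neighbours in the annotation also differed in size. TRAP1 stood at -0.98 and its neighbour CREBBP at -0.61. LONP2 stood at -0.81 and SIAH1 at -0.36, RSL1D1 at -0.41 and GSPT1 at -0.14. SNN (-0.09) lay between LITAF (-0.37) and TXNDC11 (-0.32). In each pair the mean differences had the same sign, while their sizes were unequal. The shared sign was favoured by how the genes were picked, and the difference of SNN was within its error (SE 0.13).

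Several values depend on the probe or on the scaling. Of 19 listed genes with more than 1 kept probe, the probes of 7 differed in sign, namely NAE1, NFATC2IP, SIAH1, THUMPD1, TNRC6A, UBN1 and WWOX. NFATC2IP, a nuclear protein that binds NFAT, stood at -0.52 by its brightest probe, and its 6 other probes lay between -0.23 and 0.14. SIAH1 had probes at -0.95, -0.36, -0.03 and 0.08. With arrays scaled to a common median in place of quantiles, 46 of the 55 genes were below shControl and GSPT1, THUMPD1, NAE1 and WWOX turned their sign, WWOX because its other probe was then the brightest. With the authors' log2 values or without background correction, 48 were below.

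The sets of arrays differed in how low the listed genes were. The median difference between knockdown and shControl cells over the 55 genes was -0.56 in set 2 and -0.43 in set 1. Set 2 minus set 1 of the knockdown arrays had a median of -0.14 over the 55 genes, -0.20 on the short and -0.10 on the long arm, against -0.03 over all genes. Of the 55, 36 were lower in set 2, beside 7456 of all 13721 genes, and the listed genes were picked with this difference known. In the shControl arrays set 2 minus set 1 had a median of 0.09 over the listed genes. In 6 of the 55 (10.9%) all 12 set 2 knockdown arrays lay below all 12 set 1 knockdown arrays, beside 8.02% of all genes, and in 1 (1.82%) above, beside 4.99%. Thus most of the listed genes overlapped between the sets.

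The 6 genes were TSC2, UBN1 and DCTN5 on the short arm and CHD9, ARL2BP and CMIP on the long arm. Of these, ARL2BP and CMIP were above shControl on average. TSC2 had 5.81 to 6.52 in set 2 (median 6.19) and 6.78 to 7.48 in set 1 (median 7.08). UBN1 had 8.61 to 9.15 in set 2 (median 8.87) and 9.31 to 9.74 in set 1 (median 9.57), a difference of -0.69 (SE 0.06). CHD9 had 8.07 to 8.44 in set 2 (median 8.27) and 8.83 to 9.42 in set 1 (median 9.01), a difference of -0.78 (SE 0.05). In shControl the same set difference was -0.22 (SE 0.16) for TSC2, -0.14 (SE 0.12) for UBN1 and 0.16 (SE 0.11) for CHD9. The osmotic stress factor NFAT5 differed by -0.79 (SE 0.11), with 5.15 to 6.25 in set 2 (median 5.58) and 6.02 to 6.99 in set 1 (median 6.44), and these ranges overlapped. NFATC2IP differed by -0.53 (SE 0.05), with 9.75 to 10.37 in set 2 and 10.28 to 10.96 in set 1, and FTO by -0.52 (SE 0.08), with 6.09 to 7.22 in set 2 and 6.83 to 7.44 in set 1. Both overlapped. The other kept probes of NFATC2IP gave -0.34 to 0.23 for set 2 minus set 1, so its value holds for the brightest probe only.

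In the other direction NIP7 had 11.38 to 11.62 in set 2 (median 11.51) and 10.86 to 11.33 in set 1 (median 10.96), a difference of 0.49 (SE 0.05) with no overlap. In shControl the set difference of NIP7 had the same sign, at 0.26 (SE 0.10). APRT had 10.07 to 10.82 in set 2 (median 10.46) and 9.60 to 10.23 in set 1 (median 10.03), a difference of 0.44 (SE 0.06), although its other probe gave -0.02. WWOX, near the detection limit, differed by 0.50 (SE 0.11), while its other probe gave -0.19. On the short arm the largest differences in this direction were smaller, 0.27 (SE 0.07) for MRPS34, 0.24 (SE 0.04) for RSL1D1 and 0.22 (SE 0.07) for the transcriptional regulator E4F1. For MRPS34 and E4F1 the shControl arrays differed between the sets by 0.29 (SE 0.14) and 0.22 (SE 0.14), about as much as the knockdowns.

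**Figure D4:**
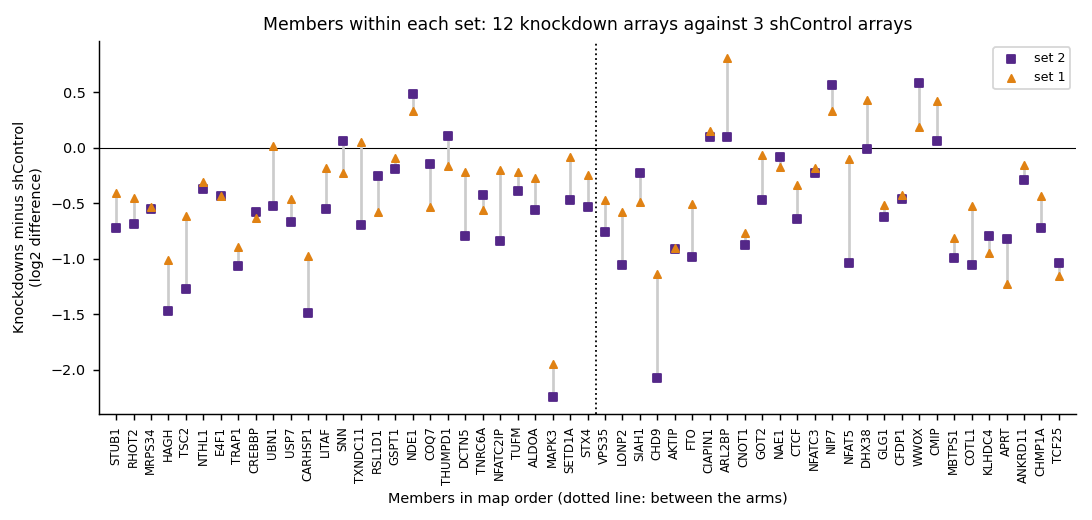
Log2 difference between knockdown and shControl cells for the 55 tested genes in map order, within set 2 (squares, 12 against 3 arrays) and within set 1 (triangles, 12 against 3 arrays). MAPK3 is the lowest in either set, at -2.24 in set 2 and -1.95 in set 1, and CHD9 is next in set 2, at -2.08 in set 2 and -1.14 in set 1.

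Differences among the knockdowns were not used to list the genes and were tested. Each knockdown was set against the mean of the other 3, averaged over the sets, with limma and Benjamini-Hochberg adjustment over all 13721 genes. In shATM cells 7 of the 55 (12.7%) passed an adjusted p under 0.05, beside 16.2% of all genes. In cells labelled shATR 0 passed, beside 0.991%, and 1 had an unadjusted p under 0.05, beside 9.38% of all genes. In shCHK1 cells 1 passed (1.82%, beside 4.56%), and in shCHK2 cells 5 passed (9.09%, beside 11.3%). In none of these contrasts was the share above that of all genes. With the arrays of a group treated as correlated, 1 passed in shATM (beside 3.83% of all genes), 0 in shCHK1 (0.415%) and 1 in shCHK2 cells (1.55%). Without replicate 3 of shCHK2 set 1, 2 of the 55 passed in shCHK2 cells, beside 7.4% of all genes.

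Among the listed genes that passed in shATM cells, NTHL1, HAGH and MRPS34 had the largest rises. NTHL1 had 9.10 to 9.62 in shATM (median 9.29) and 8.62 to 9.45 in the other knockdowns (median 8.95), a difference of 0.33 (SE 0.07, adjusted p = 0.0027). HAGH had 9.74 to 10.43 in shATM (median 10.11) and 9.27 to 10.23 in the others (median 9.74), a difference of 0.32 (SE 0.06, adjusted p = 0.00058). The arrays overlapped in both genes. MRPS34 rose by 0.31 (SE 0.08, adjusted p = 0.0071), VPS35 by 0.23 (SE 0.05, adjusted p = 0.0021) and MAPK3 by 0.24 (SE 0.07, adjusted p = 0.012). For MAPK3 the difference was -0.08 in set 2 and 0.56 in set 1. TNRC6A, a protein of microRNA silencing, fell by 0.25 (SE 0.08, adjusted p = 0.031) and the histone methyltransferase SETD1A by 0.24 (SE 0.07, adjusted p = 0.022).

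In shCHK2 cells HAGH fell, with 9.27 to 9.86 (median 9.53) in shCHK2 and 9.28 to 10.43 (median 9.95) in the other knockdowns, a difference of -0.38 (SE 0.06, adjusted p = 0.00015). CARHSP1 had 9.80 to 10.28 (median 9.97) in shCHK2 and 9.84 to 10.58 (median 10.32) in the others, a difference of -0.30 (SE 0.07, adjusted p = 0.0051). APRT fell by 0.26 (SE 0.07, adjusted p = 0.015) and LONP2 by 0.22 (SE 0.06, adjusted p = 0.019), and THUMPD1 rose by 0.15 (SE 0.05, adjusted p = 0.042). For LONP2 the difference was -0.41 in set 2 and -0.03 in set 1, and for APRT -0.34 in set 2 and -0.18 in set 1. HAGH is thus the gene called in both shATM and shCHK2 cells, in opposite directions, in contrasts that share arrays. In set 2 its difference was 0.23 for shATM and -0.24 for shCHK2, and in set 1 it was 0.41 for shATM and -0.51 for shCHK2. In shCHK1 cells NFATC2IP, by its brightest probe, fell by 0.21 (SE 0.06, adjusted p = 0.036), with 9.75 to 10.54 in shCHK1 (median 10.10) and 9.90 to 10.96 in the others (median 10.33), and differences of -0.33 in set 2 and -0.09 in set 1. With the mean of a gene's kept probes 0 listed genes passed in shCHK1 cells, beside 4.82% of all genes.

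Whether the difference between the sets was the same in the 4 knockdowns was tested with limma's F test over 3 contrasts. It was unequal in 10 of the 55 (18.2%), beside 15.2% of all genes. With median scaling 3 passed, beside 7.4% of all genes, and with a replicate number left out of every group 0 to 3 passed, beside 4.76% to 7.48%. MAPK3 had the smallest adjusted p (0.0029), with set 2 minus set 1 at -0.75 in shATM, -0.29 in cells labelled shATR, 0.13 in shCHK1 and -0.18 in shCHK2 cells (SE 0.11 each). In shATM its log2 levels were 8.11, 7.94 and 8.08 in set 2 and 8.85, 8.73 and 8.79 in set 1. The 3 shATM arrays of set 1 were thus the highest of all knockdown arrays. APRT had 10.82, 10.57 and 10.48 in shCHK1 set 2 and 9.61, 9.60 and 9.79 in shCHK1 set 1, a set difference of 0.95, against 0.22 to 0.32 in the other knockdowns (SE 0.12 each, adjusted p = 0.0085). FTO had 6.46, 6.14 and 6.09 in shCHK1 set 2 and 7.02, 7.41 and 7.25 in shCHK1 set 1, a set difference of -1.0, against -0.65 to -0.17 in the others (SE 0.16 each, adjusted p = 0.038).

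**Figure D5:**
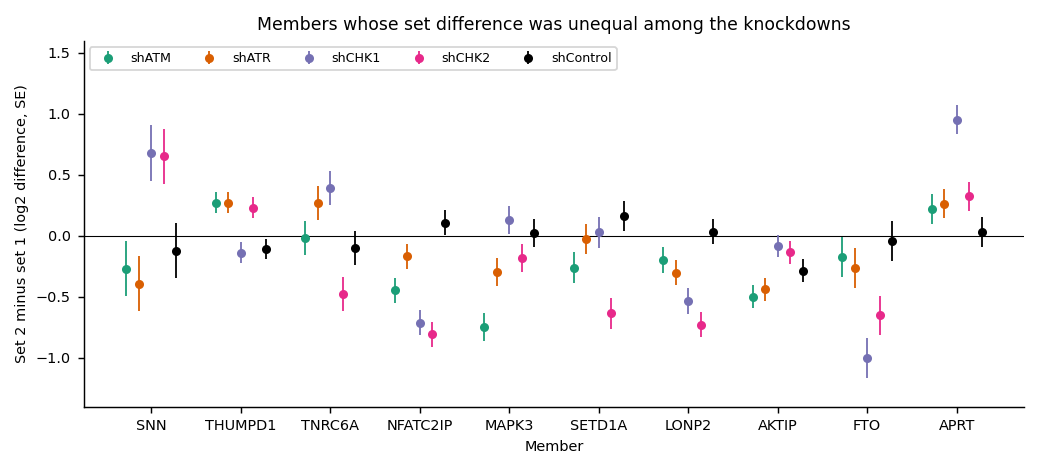
Set 2 minus set 1 difference on the log2 scale in each knockdown and in shControl for the 10 genes in which it was unequal among the knockdowns, with bars of 1 SE. APRT in shCHK1 (0.95) and FTO in shCHK1 (-1.0) lie farthest from 0, and the shControl points stay between -0.29 and 0.16.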

How the data were processed

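Total RNA of 30 samples was labelled with biotin and hybridised to Illumina bead arrays, per the labels' protocols. The deposited table holds a linear intensity per probe, with no background subtracted as far as its values show, and, per the file headers, a detection p-value beside each. The authors also deposited log2 values, with the same median (6.88) in each column. The software and genome build behind them are not given in the sources used here. Intensities were background corrected from the detection p-values and quantile normalised with neqc of limma 3.58.1 (R 4.3.3, statmod 1.5.0), with an offset of 16. Of 47231 probes, 30113 matched 1 symbol, 8 several and 17110 none. Probes with a detection p under 0.05 on at least 3 arrays (26967) were kept, and the brightest probe stood for its gene.

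A mean for each of 10 groups was fitted with limma to all 30 arrays (20 residual degrees of freedom). Fold changes are differences of neqc log2 values, and the offset shrinks those of dim genes. p-values are two-sided and adjusted by Benjamini-Hochberg over 13721 genes. The number of arrays limits the precision. Gene order and arms, divided at the widest gap between tested genes, and promoter windows came from RefSeq (GRCh38.p14). The procedure was tested on simulated data. The genes, roles and tests were chosen with earlier results of these data known. Ranges over arrays are given for, per arm, the 5 highest and 5 lowest differences from shControl and the 3 highest and 3 lowest between sets, for up to 3 called genes per direction and contrast, and for neighbouring genes. Alternatives covered normalisation, filter, probe choice, sets, single arrays and replicate numbers.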

Additional observations from a re-analysis of the deposited data

Results flagged for a closer look

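Across the knockdowns, 10 of the listed genes differed in their set 2 minus set 1 difference by limma's F test with Benjamini-Hochberg adjustment over all genes (15.2% of all genes did). MAPK3 (adjusted p = 0.0029) was lower in set 2 by -0.75 in shATM and stood at 0.13 in shCHK1 cells. APRT (adjusted p = 0.0085) stood at 0.95 in shCHK1 and at 0.22 in shATM cells. By its brightest probe NFATC2IP (adjusted p = 0.0090) ran from -0.81 in shCHK2 to -0.17 in cells labelled shATR. TNRC6A (adjusted p = 0.010) ran from -0.48 in shCHK2 to 0.39 in shCHK1 cells. SNN (adjusted p = 0.021) was at 0.68 in shCHK1 and 0.65 in shCHK2 cells but at -0.39 in cells labelled shATR and -0.27 in shATM cells. SETD1A (adjusted p = 0.029) stood at -0.64 in shCHK2 and 0.03 in shCHK1 cells. THUMPD1 (adjusted p = 0.036) was at -0.14 in shCHK1 cells and between 0.23 and 0.27 in the others. FTO (adjusted p = 0.038) stood at -1.0 in shCHK1 and -0.17 in shATM cells. LONP2 (adjusted p = 0.048) ran from -0.73 in shCHK2 to -0.20 in shATM cells, and AKTIP (adjusted p = 0.049) from -0.50 in shATM to -0.08 in shCHK1 cells.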

How the results depend on the processing

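All medians of the listed genes kept their sign under every alternative run. The long-arm median of knockdowns minus shControl was -0.39 with the authors' log2 values, -0.40 without background correction and -0.49 with the mean of a gene's probes. Median scaling gave -0.30 on the short and -0.42 on the long arm, and -0.28 and -0.19 for set 2 minus set 1, and it moved the median of all genes to 0.06. Within set 2 the arms stood at -0.55 and -0.64, and within set 1 at -0.35 and -0.44. Leaving out replicates or single arrays gave long-arm medians of -0.56 to -0.49. The count of listed genes called in shATM was 11 with the authors' values and without background correction (18.2% of all genes each), and 3 to 9 with arrays left out (7.78% to 16.5%). For shCHK1 it was 0 with median scaling (2.72%) or the mean of probes (4.82%), 2 within set 2 (2%) and within set 1 (7.89%), and 0 to 1 with arrays left out (1.81% to 4.84%). For shCHK2 it was 2 with median scaling (8.97%) and within set 2 (5.83%), and 1 to 6 with arrays left out (4.37% to 14.5%). The F test called 3 listed genes with median scaling (7.4%) and 0 to 10 with arrays left out (4.76% to 15.4%). With the 3 arrays of a group as a random block (correlation 0.197) 1 listed gene was called in shATM (3.83%), 0 in shCHK1 (0.415%) and 1 in shCHK2 (1.55%), and with 1 mean per shRNA and set 0, 0 and 0 were called (at most 0.00729% of all genes), so these calls rest on the arrays of a group counting as independent. Same-numbered arrays of different groups correlated at -0.06 to 0.48 in their deviations, with a median of 0.0027. Arrays with other numbers correlated at -0.32 to 0.16, with a median of -8.1e-05. Most same-numbered arrays were thus not paired visibly, but whether the numbers pair some of the samples is not settled. With the replicate number as a block the counts were 7, 0, 1 and 5, with 8 for the F test. The causes of these changes were not tested.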
